A study of Homo sapiens with 2 samples.

Results

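Passenger strands, marked with a star in the older miRNA names, were followed in the established gastric cancer cell line MKN1 under hypoxia and under normoxia. Cells were kept for 24 h in a chamber with 1% O2 (hypoxia) or under normoxia, both in RPMI-1640 with fetal bovine serum, and their total RNA, tagged with biotin, was measured on a human miRNA array, with 1 array per condition. Of the 1329 probes, 172 had a name ending in a star. Of these, 21 with the numbers of the miRNA clusters at 14q32 and on chromosome 19 were left out by number. The rule also excluded miR-548 and miR-570, which had no star strand among them. This left 151 star strands with 138 different guides. The guide is the probe of the same name without the star and the copy number. Since each condition had 1 array, no array difference given here has a replicate array and none was tested. Precision is limited by the number of arrays. For some miRNAs the paper also reports quantitative real-time PCR, which is mentioned with them below.

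A miRNA gene is transcribed as a hairpin, which Drosha and Dicer cut to a short duplex of both arms. Argonaute keeps 1 strand of the duplex as the guide, which finds target mRNAs through its seed, bases 2 to 8, and the other strand, the passenger or star strand, is mostly discarded and degraded. The choice is known to favour the strand whose first base is unpaired or weakly paired, often a U, and some star strands are loaded too and repress targets of their own.

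The following sequences are those of the star strands on which the results turn, each followed by its guide, and star strands from several gene copies of 1 guide stand together. They were taken from RefSeq (GRCh38.p14), run 5′ to 3′, and have the seed in capitals. Positions are those of the star strand.
miR-92a-1* (MIR92A1, chr13:91351324-91351346, plus strand, within MIR17HG): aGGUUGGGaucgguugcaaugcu
miR-92a-2* (MIR92A2, chrX:134169583-134169604, minus strand, within MIR106AHG): gGGUGGGGauuuguugcauuac
miR-92a: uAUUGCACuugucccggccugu
miR-130b* (MIR130B, chr22:21653316-21653336, plus strand): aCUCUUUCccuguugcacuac
miR-130b: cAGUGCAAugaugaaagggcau
miR-744* (MIR744, chr17:12081966-12081987, plus strand, within MAP2K4): cUGUUGCCacuaaccucaaccu
miR-744: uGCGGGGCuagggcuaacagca
miR-15b* (MIR15B, chr3:160404645-160404666, plus strand, within SMC4): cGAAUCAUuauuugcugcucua
miR-15b: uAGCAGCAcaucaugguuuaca
miR-7-1* (MIR7-1, chr9:83969771-83969792, minus strand, within HNRNPK): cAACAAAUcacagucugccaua
miR-7-2* (MIR7-2, chr15:88611896-88611917, plus strand, within AEN): cAACAAAUcccagucuaccuaa
miR-7: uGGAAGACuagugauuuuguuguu
miR-30c-1* (MIR30C1, chr1:40757339-40757360, plus strand, within NFYC): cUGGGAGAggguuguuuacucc
miR-30c-2* (MIR30C2, chr6:71376964-71376985, minus strand): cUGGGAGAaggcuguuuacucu
miR-30c: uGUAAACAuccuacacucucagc
let-7a* (MIRLET7A1, chr9:94176013-94176033, plus strand, within MIRLET7A1HG): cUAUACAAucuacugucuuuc
let-7a: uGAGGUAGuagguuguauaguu
miR-24-1* (MIR24-1, chr9:95086027-95086048, plus strand, within AOPEP): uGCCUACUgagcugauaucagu
miR-24-2* (MIR24-2, chr19:13836326-13836347, minus strand, within MIR23AHG): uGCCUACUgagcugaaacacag
miR-24: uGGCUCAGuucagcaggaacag
miR-1228* (MIR1228, chr12:57194504-57194524, plus strand, within LRP1): gUGGGCGGgggcaggugugug
miR-1228: uCACACCUgccucgcccccc

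The same let-7a* sequence is also annotated for MIRLET7A3, so its probe cannot tell these genes apart. A sequence was found for 139 of the 151 star strands and for 122 guides, and the names with no entry were miR-221* and 11 others. The first base was a U in 19 of 139 star strands (13.7%), against 79 of 122 guides (64.8%), and it was a C in 57 star strands (41.0%) and 15 guides (12.3%). Star strands had a median GC content of 50%, against 45.5% in the guides, and both had a median length of 22 bases. Guides thus began with a U far more often than star strands did.

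A signal was listed on both arrays for 78 of the 151 star strands (51.7%), against 428 of the 707 mature probes without a star (60.5%) and 49.9% of all probes. The array values are linear signal intensities after the authors' normalization, with a lowest listed signal of 20 and 0 for all other probes. The sources used here do not say what a 0 means, so no fold change was calculated from it. Signals of the 78 star strands lay between 27 and 10123 under hypoxia, with a median of 222.5, and between 20.33 and 14581 under normoxia, with a median of 231.35. The 428 other mature probes had medians of 515.5 under hypoxia and 455.5 under normoxia, so star strands were the dimmer class on both arrays. More probes of all kinds were listed under hypoxia than under normoxia. A hypoxia signal was listed for 14 of the 72 star strands at 0 under normoxia (19.4%), against 22.9% of the other mature probes and 26.2% of all probes at 0 under normoxia. The share in star strands was near that of the other mature probes, and the share over all probes also counts precursor probes.

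The brightest star strands on these arrays were those of miR-24, a miRNA known to repress cell-cycle genes. miR-24-2* had a signal of 10123 under hypoxia and 14581 under normoxia, and miR-24-1* had 9132 under hypoxia and 11941 under normoxia. They were followed by miR-138-1* (5022 under hypoxia and 3776 under normoxia), miR-550* (4861 under hypoxia and 6094 under normoxia), miR-7-2* (4584 under hypoxia and 2287 under normoxia) and miR-335* (4318 under hypoxia and 5115 under normoxia). The list of the 10 brightest under hypoxia ended with miR-130b* (2263 under hypoxia and 843.7 under normoxia), miR-30b* (2223 under hypoxia and 2438 under normoxia), miR-96* (1569 under hypoxia and 1592 under normoxia) and miR-593* (1446 under hypoxia and 2071 under normoxia). Of these 10, miR-138-1*, miR-7-2* and miR-130b* were higher under hypoxia and the other 7 were lower, and miR-130b* and miR-7-2* alone differed by over 2-fold. Signals come from different probes, so their order is that of probe brightness and not of molecules.

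**Figure D1:**
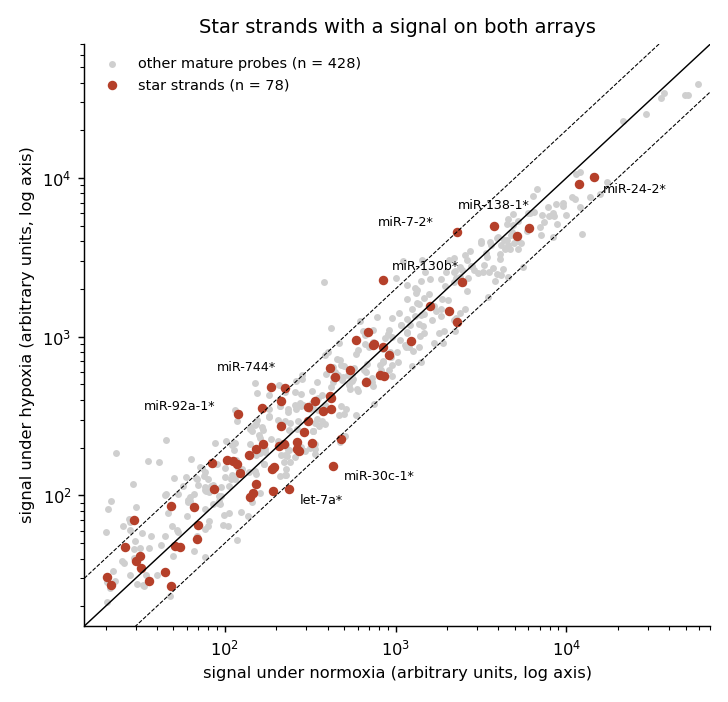
Signals under hypoxia (vertical axis) against signals under normoxia (horizontal axis), in arbitrary units on log axes, for the 78 star strands (red) and 428 other mature probes (grey) with a signal on both arrays. The solid line marks equal signals and the dashed lines mark 2-fold differences. Star strands lie on both sides of the line, with 7 above the upper and 3 below the lower dashed line.

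On these arrays, 38 of the 78 star strands were higher under hypoxia and 40 were lower. Their median log2 fold change, given as hypoxia over normoxia here and throughout, was -0.023. The same median was 0.14 for all 663 probes with a signal on both arrays, 0.09 for the other mature probes and 0.28 for precursors. Over 2-fold higher were 7 star strands (8.97%), against 9.65% of all probes and 9.11% of the other mature probes. Over 2-fold lower were 3 star strands (3.85%), against 2.11% of all probes and 2.1% of the other mature probes. The share of star strands over 2-fold higher was near the background, and the 3 lower ones were too few to set apart from it. Single changes of scale move these directions, since scaling on the total signal added 0.20 and scaling on the 75th percentile of the listed signals added 0.55 to every log2 fold change, while median centring subtracted 0.14. A star strand up to 0.55 lower or up to 0.14 higher on the log2 scale therefore changes direction under at least 1 of these scalings.

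The star strands over 2-fold higher had guides of different families. miR-92a-1* had a signal of 328 under hypoxia, against 119.7 under normoxia, a log2 fold change of 1.45 (2.74-fold). Its guide miR-92a, of the oncogenic miR-17-92 cluster, had 2844 under hypoxia and 3313 under normoxia. The star was thus higher and its guide lower in the deposited signals.

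miR-130b* had a signal of 2263 under hypoxia, against 843.7 under normoxia (log2 fold change of 1.42). Its guide miR-130b, which shares its seed with the miR-301 and miR-454 guides, had 4088 under hypoxia and 4492 under normoxia. miR-130b* was the only one of the 10 brightest star strands with a log2 fold change clearly past 1, since miR-7-2* lay at the threshold. By quantitative real-time PCR, the paper reports miR-130b* as significantly higher under hypoxia.

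miR-744* had a signal of 483.3 under hypoxia, against 185.7 under normoxia (log2 fold change of 1.38). Its guide miR-744 had 350.7 under normoxia and was 1.17-fold higher under hypoxia, so star and guide were both higher, the star by more. miR-15b* had 357.7 under hypoxia, against 166 under normoxia (log2 fold change of 1.11). Its guide miR-15b, a relative of miR-16 known to repress BCL2, had 547.7 under hypoxia and 726 under normoxia.

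miR-122* had a signal of 472.3 under hypoxia, against 226 under normoxia (log2 fold change of 1.06). Its guide miR-122, the most abundant miRNA of liver cells, had 1720 under hypoxia and 1171 under normoxia, so both strands were higher. miR-7-2* had 4584 under hypoxia, against 2287 under normoxia, a log2 fold change of 1.00 that just passed 2-fold. In the paper, quantitative real-time PCR found miR-7-2* significantly higher under hypoxia too. Its guide miR-7, known to repress EGFR, had 856.3 under hypoxia and 1152 under normoxia on these arrays. miR-7-2* fell short of 2-fold after median centring (0.87) and with 50 added to each signal (0.99), and miR-15b* and miR-122* fell short after median centring, after quantile normalization and after detrending (subtraction of the dependence of fold change on signal, fitted over all probes), with log2 fold changes between 0.87 and 0.97. The dimmest of the 7 was miR-181a*, with 70 under hypoxia and 29.33 under normoxia (2.39-fold), while its guide miR-181a, known in mouse to tune T cell receptor signalling, had 1928 under hypoxia and 2640 under normoxia.

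The 3 star strands over 2-fold lower came from the miR-30 and let-7 families, whose guides are known for restraining epithelial to mesenchymal transition and for repressing RAS and HMGA2. miR-30c-1* had a signal of 154.3 under hypoxia, against 429.7 under normoxia, a log2 fold change of -1.48. miR-30c-2*, from the other gene copy, had 227.3 under hypoxia, against 481.7 under normoxia (-1.08). The shared guide miR-30c had 5819 under hypoxia and 7186 under normoxia. let-7a* had 109 under hypoxia, against 236.7 under normoxia (-1.12), while let-7a had 10886 under hypoxia and 11977 under normoxia. Both star strands of miR-30c and let-7a* were thus lower by more than their guides. miR-30c-2* and let-7a* lay within 2-fold after scaling on the total signal (-0.88 and -0.92), and all 3 did after scaling on the 75th percentile of the listed signals.

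**Figure D2:**
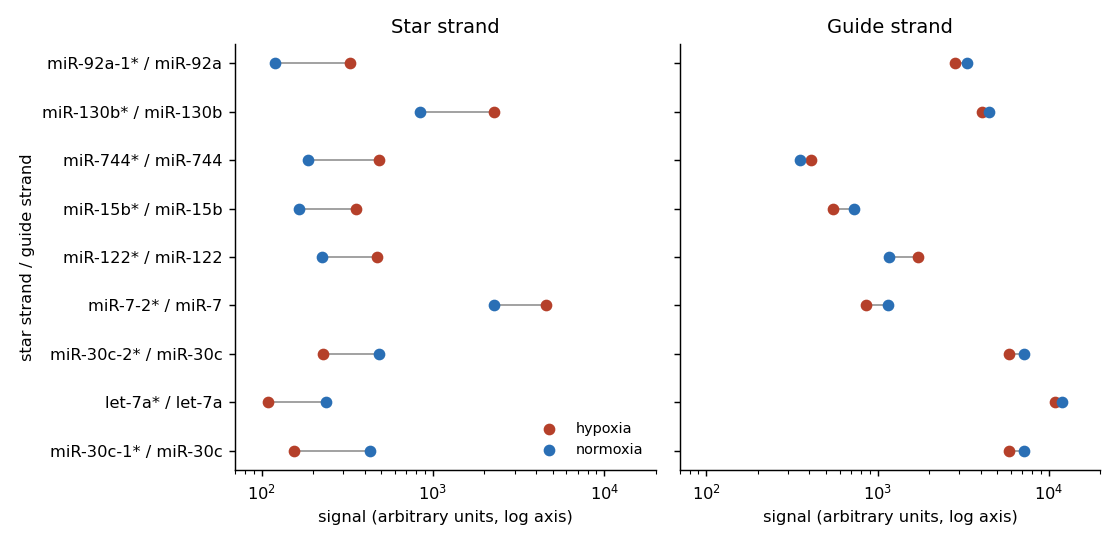
Signals under hypoxia (red) and normoxia (blue), in arbitrary units on a log axis, of the 9 star strands that differed by over 2-fold with signals of at least 50 on both arrays (left) and of their guides (right), with 1 array per condition. The star strands span over 2-fold because they were chosen for it, so the contrast with their guides is in part set by the choice. The guides of the same rows lie closer together, as in miR-130b (4088 and 4492).

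The star to guide ratio was then calculated on each array, and its change under hypoxia for the 73 pairs with all 4 signals, which had 66 guides. A single scaling factor of an array cancels in this change. The ratio itself is one of signals of different probes and not of molecules, and a change in it shows that the strands changed unequally, not which one changed. The 5 star strands with both signals but no guide signal on at least 1 array were miR-1226*, miR-1909*, miR-1911*, miR-452* and miR-505*. The median star signal was 20.98% of that of its guide under hypoxia and 14.1% under normoxia, and it was below 10% in 28 pairs under hypoxia and in 33 under normoxia. The ratio was higher under hypoxia in 45 pairs and lower in 28, with a median log2 change of 0.23 (1.18-fold) and quartiles of -0.43 and 0.77.

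In these pairs the star strands had a median log2 fold change of -0.021, and 36 were higher and 37 lower. The guides had a median of -0.22, and 26 were higher and 40 lower. The star was higher and its guide lower in 22 pairs, and the star was lower and its guide higher in 13. Both strands were higher in 14 pairs and both lower in 24. How the change of the ratio divides between star and guide depends on the scaling of the arrays, which shifts both medians by the same amount.

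The ratio was over 2-fold higher in 12 pairs (16.4%), against 16.2% of all 74 star pairs of the array, and over 2-fold lower in 4 (5.48%), against 5.41%. The star strand was higher in all 12 pairs with an increase, by over 2-fold in 6 of them, and the guide was lower in 11. These backgrounds are nearly the same pairs. A separate background was given by the hairpins whose arms are named 5p and 3p, with no star, of which 39 of 81 had all 4 signals. The ratio of the dimmer to the brighter arm was over 2-fold higher in 15.4% and over 2-fold lower in 5.13% of these, with a median log2 change of 0.24. Between star and guide, the ratio of dimmer to brighter strand had a median log2 change of 0.22. The median size of the change, either way, was 0.60 in star pairs and 0.62 in pairs of arms. Pairs of star and guide were therefore close to pairs of 5p and 3p arms in these respects.

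**Figure D3:**
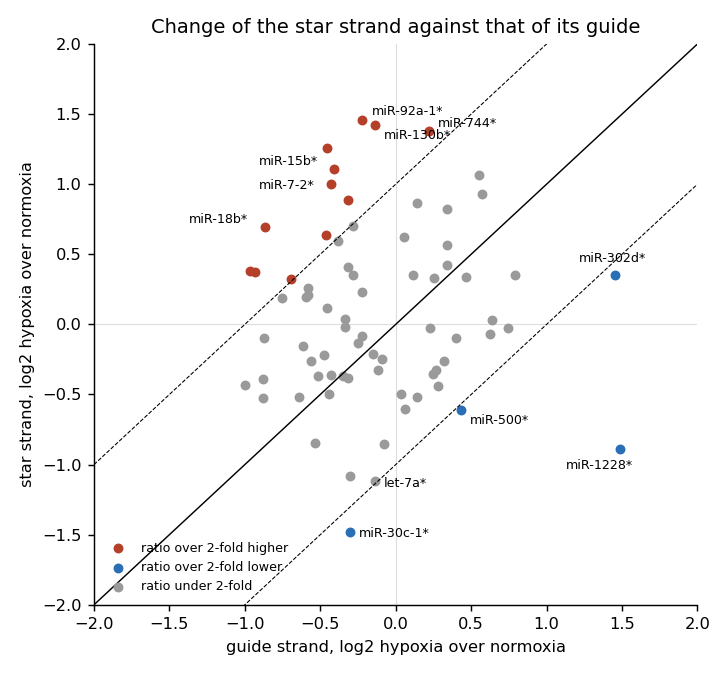
Log2 fold change (hypoxia over normoxia) of the star strand (vertical axis) against that of its guide (horizontal axis) in 73 pairs. The solid line marks equal changes and the dashed lines a 2-fold change of the ratio, with 12 pairs above (red) and 4 below (blue); most red points lie left of 0, where the guide was lower under hypoxia.

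Among the 58 pairs whose 4 signals were all at least 50, the ratio of miR-92a-1* to miR-92a had the largest increase, at 11.5% under hypoxia and 3.61% under normoxia (log2 change of 1.67). The ratio of miR-18b* to miR-18b was 18.2% under hypoxia and 6.16% under normoxia (1.56), from a star signal of 166.7 under hypoxia that was 1.62-fold higher than under normoxia and guide signals of 916.7 under hypoxia and 1671 under normoxia. miR-18a*, whose guide has the same seed as miR-18b, had a ratio of 27.2% under hypoxia and 11.0% under normoxia (1.30). In both miR-18 pairs the star was higher and the guide lower in the deposited signals, with miR-18a at 657.3 under hypoxia and 1254 under normoxia.

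The ratio of miR-130b* to miR-130b was 55.4% under hypoxia and 18.8% under normoxia (log2 change of 1.56), and that of miR-15b* to miR-15b was 65.3% under hypoxia and 22.9% under normoxia (1.51). In these pairs, too, the star was higher and the guide lower. The signal of miR-7-2* was 5.35 times that of miR-7 under hypoxia and 1.99 times under normoxia (1.43). In 2 of these 8 pairs the star passed its guide only under hypoxia. The ratio of miR-744* to miR-744 was 1.18 under hypoxia and 0.53 under normoxia (1.16), and that of miR-138-2* to miR-138, a miRNA of neurons, was 2.18 under hypoxia and 0.95 under normoxia (1.20).

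Of the other 4 increases over 2-fold, those of miR-181a* and miR-221* had a signal under 50 and those of miR-32* and miR-30a* ranked below the 8 largest. The ratio of miR-181a* had the largest log2 increase of all 73 pairs (1.71), and the remaining ones, named after their values were seen, were miR-221* (1.35), miR-32* (1.10) and miR-30a* (1.02). miR-221 is known to repress the cell-cycle inhibitor p27.

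The ratio was over 2-fold lower for miR-1228*, miR-30c-1*, miR-302d* and miR-500*. miR-1228, cut from a short intron of LRP1, had a guide signal of 85 under hypoxia and 30.33 under normoxia, near the lowest listed signal, while miR-1228* had 1233 under hypoxia and 2286 under normoxia. The star was 14.5 times the guide under hypoxia and 75.4 times under normoxia, a log2 change of -2.38. The log2 fold change of this dim guide was 1.49 and that of the star was -0.89. The ratio of miR-30c-1* to miR-30c was 2.65% under hypoxia and 5.98% under normoxia (-1.17), with both strands lower under hypoxia in the deposited signals. miR-302d, of a cluster known from pluripotent cells, was higher under hypoxia (3011, against 1099 under normoxia) while its dim star had 38.33 under hypoxia and 30 under normoxia, and the ratio changed by -1.10. miR-500* had 563.3 under hypoxia and 860.3 under normoxia, its guide had 352.3 under hypoxia and 261.3 under normoxia, and the ratio changed by -1.04.

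Next came let-7a*, with a ratio of 1.00% under hypoxia and 1.98% under normoxia (log2 change of -0.98), and miR-30c-2* (-0.78). The ratio of miR-589* changed by -0.78, that of miR-125b-2* by -0.70, and those of miR-302a* and miR-593* by -0.66 each. In the deposited signals the star was nearly level for miR-589* and miR-125b-2*, at 410.3 under hypoxia and 418.7 under normoxia for miR-589* and at 293 under hypoxia and 307.3 under normoxia for miR-125b-2*. Their guides were 1.68-fold and 1.55-fold higher.

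Fold changes depended on signal, and guides were mostly brighter than their stars, so the ratios were also taken after detrending. The median log2 change of the ratio was -0.053 and the ratio was higher in 36 pairs and lower in 37. After quantile normalization the median was -0.071, with 35 pairs higher and 38 lower. The overall increase of the ratio was therefore not seen with either of these steps. Past the threshold, 11 pairs were over 2-fold higher and 7 over 2-fold lower after detrending. Of the 8 increases described above, miR-7-2* (1.60), miR-15b* (1.37), miR-130b* (1.35), miR-92a-1* (1.27), miR-138-2* (1.25), miR-18b* (1.23), miR-744* (1.12) and miR-18a* (1.04) all stayed past 2-fold. Of the remaining increases, miR-181a* (1.27) stayed past 2-fold, while miR-221* (0.90), miR-32* (0.83) and miR-30a* (0.61) fell within it. Newly past 2-fold were miR-138-1* (1.21) and miR-877* (1.17). Of the decreases, let-7a* (-1.66), miR-30c-1* (-1.70), miR-30c-2* (-1.27) and miR-1228* (-1.97) were past 2-fold after detrending, and miR-500* (-0.90) was not. The others over 2-fold lower after detrending were miR-302d*, let-7f-1* and let-7i*. In the pairs of 5p and 3p arms the median log2 change was -0.031 after detrending.

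**Figure D4:**
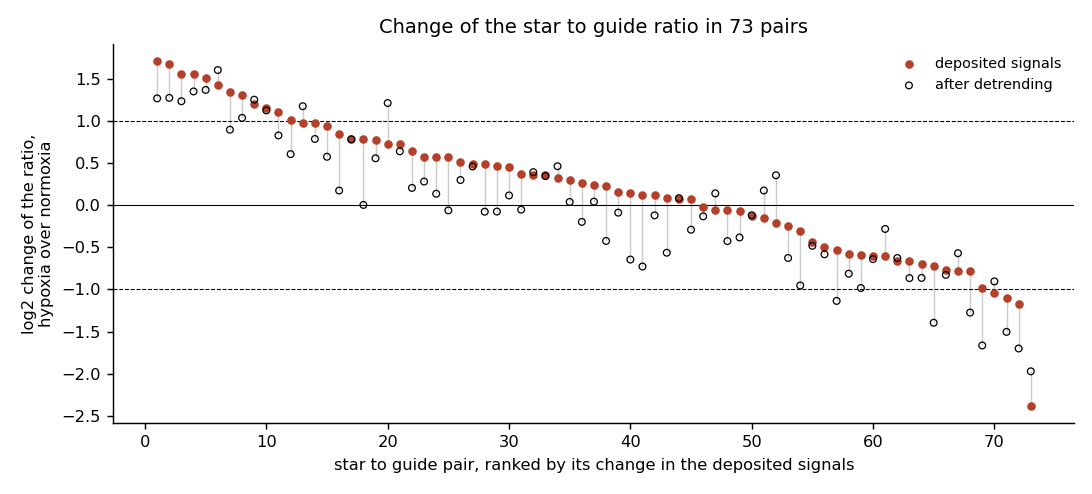
Log2 change of the star to guide ratio (hypoxia over normoxia, vertical axis) in 73 pairs, ranked by the change in the deposited signals (horizontal axis). Red points are the deposited signals and open circles the same pairs after detrending, and dashed lines mark 2-fold; detrending lowers many of the middle pairs, and their median is 0.23 before and -0.053 after it.

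The star was brighter than its guide in 18 of the 73 pairs under hypoxia and in 14 under normoxia, and 14 pairs did so on both arrays. miR-550* had 4861 under hypoxia and 6094 under normoxia, or 31.0 times its guide under hypoxia and 35.8 times under normoxia. miR-138-1* was 27.8 times its guide under hypoxia and 16.8 times under normoxia. miR-488* was 18.8 times a dim guide under hypoxia and 28.7 times under normoxia. These multiples were far above the median pair.

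miR-335*, whose guide is hosted by MEST and known as a suppressor of metastasis in breast cancer, was 7.04 times its guide under hypoxia and 7.83 times under normoxia. miR-877* was 4.90 times its guide under hypoxia and 2.48 times under normoxia, with star signals of 947.3 under hypoxia and 583.7 under normoxia. miR-589*, miR-363* and miR-96* were between 3.33 and 3.53 times their guides under hypoxia and between 2.68 and 6.04 times under normoxia. Among the 14 pairs the ratio was higher under hypoxia in 6 and lower in 8 (median log2 change of -0.11). In the 54 pairs whose star was dimmer on both arrays it was higher in 35 and lower in 19 (median of 0.25). The 4 pairs that crossed 1 all did so upward under hypoxia and were, besides miR-744* and miR-138-2*, miR-24-2* and miR-126*, with miR-126* named after its values were seen. miR-425*, also named after its values were seen, fell in none of these groups. It was level with its guide under normoxia (152 each) and below it under hypoxia (118.7, against 180.7 for the guide).

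Star strands from different gene copies share a guide and differ in part of their sequence. Of 13 guides with several star strands on the array, 7 had both measured. miR-7-1* and miR-7-2* have the same base at 18 of 22 positions and the same seed. miR-7-1* had signals of 53.33 under hypoxia and 68.33 under normoxia (log2 fold change of -0.36), and miR-7-2* had 4584 under hypoxia and 2287 under normoxia (1.00). The copies thus differed in brightness and, in the deposited signals, in direction. After scaling on the 75th percentile of the listed signals both were higher under hypoxia.

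miR-92a-1* and miR-92a-2* had the same base at 16 positions and different first bases. miR-92a-2* had 360.3 under hypoxia and 307.7 under normoxia (0.23), against the log2 fold change of 1.45 of miR-92a-1*. For miR-181a the star of the first gene had a log2 fold change of 1.25 and that of the second 0.11, from 35 under hypoxia and 32.33 under normoxia. In these 3 guides the copies differed by over 2-fold in their change.

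The other 4 guides had copies that moved alike. The log2 fold changes were 0.41 for miR-138-1* and 0.89 for miR-138-2*, and 0.57 for miR-29b-1* and 0.42 for miR-29b-2*. miR-30c-1* and miR-30c-2*, which have the same base at 19 positions, were both lower (-1.48 and -1.08). The star strands of miR-24, with the first 15 bases in common, had log2 fold changes of -0.39 and -0.53, while miR-24 had 9447 under hypoxia and 17399 under normoxia, so the ratio was higher for both (0.49 and 0.35). Where sequences are this alike a probe may also bind the other copy, and this was not tested.

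Of the guides with 1 copy or none measured, miR-125b had miR-125b-1* at 0 on both arrays and miR-125b-2* at 293 under hypoxia, and let-7f had let-7f-2* at 0 on both and let-7f-1* at 33 under hypoxia and 44.67 under normoxia. miR-16-1* (32.67) and miR-26a-2* (20.33) had a signal under hypoxia alone. The star strands of miR-19b and miR-218 were listed at 0 on both arrays.

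**Figure D5:**
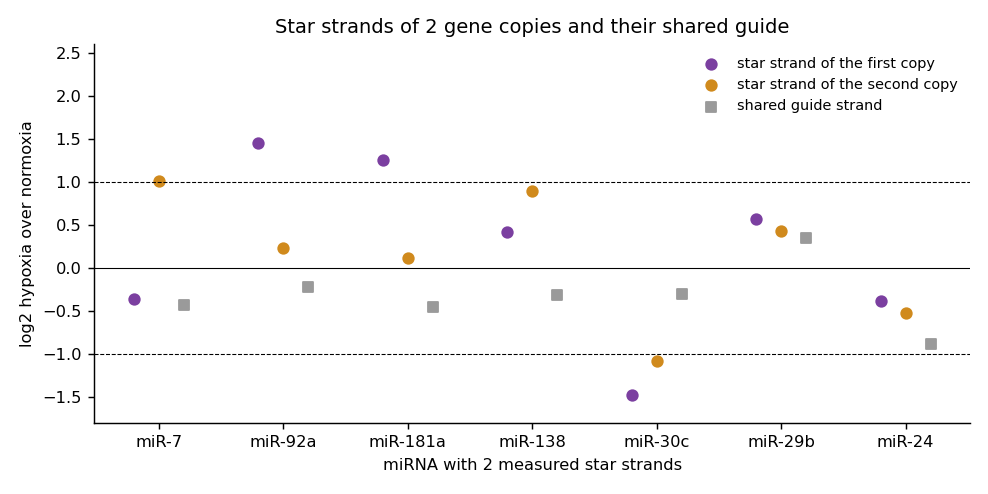
Log2 fold change (hypoxia over normoxia, vertical axis) of both star strands (circles, first and second gene copy) and of the shared guide (square) for the 7 guides with both star strands measured, ordered by the distance between the copies. The dashed lines mark 2-fold. The copies of miR-7 lie 1.36 apart and those of miR-24 lie 0.14 apart.

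In the deposited signals, star strands cut from 1 transcript shared a direction in some clusters and not in others. Both measured ones were lower under hypoxia in NFYC, with log2 fold changes of -0.26 for miR-30e* and -1.48 for miR-30c-1*, and in MIRLET7A1HG, where let-7f-1* had -0.44 and let-7a* had -1.12. In MIR17HG on chromosome 13, miR-92a-1* and miR-18a* were higher under hypoxia and miR-17* was lower, with 106.3 under hypoxia and 191 under normoxia, while miR-19a*, miR-20a* and miR-19b-1* were at 0 on both arrays. In MIR106AHG on chromosome X, miR-18b* and miR-92a-2* were higher and miR-363* was lower, with 572.3 under hypoxia and 809.3 under normoxia, and miR-19b-2* and miR-20b* were at 0. In both of these paralogous clusters the stars of miR-18 and miR-92a had a signal and those of miR-19b and miR-20 were at 0.

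In MIR23AHG on chromosome 19, miR-24-2* was lower, miR-23a* had 895 under hypoxia and 746.3 under normoxia, and miR-27a* was the only star strand listed under normoxia alone (0 under hypoxia and 48 under normoxia). The precursor probe of miR-27a was lower too, with 224.3 under hypoxia and 495.3 under normoxia, while miR-27a, known for its part in fat cell differentiation, had 34474 under hypoxia and 37228 under normoxia. In the paralogous cluster on chromosome 9, miR-23b* had 391 under hypoxia and 338.3 under normoxia, miR-27b* had 210 under hypoxia and 222.3 under normoxia, and miR-24-1* was lower.

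Precursor probes were on the array for most of these hairpins, and few of the named ones had a signal on both arrays. The miR-92a-1 precursor had 180.3 under hypoxia and 120.7 under normoxia (1.49-fold), the same direction as its star. The miR-15b precursor had 34.33 under hypoxia and 44.67 under normoxia, opposite to its star, and the miR-18b precursor had 243.7 under hypoxia and 232 under normoxia. The let-7a-1 precursor had 783.7 under hypoxia and 665.7 under normoxia, opposite to let-7a*. Those of miR-7-2 and miR-30c-1 were at 0 on both arrays, and that of miR-130b was listed under hypoxia alone (37.33).

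Counts by guide family are set beside those over all 73 pairs. There the star to guide ratio was higher in 45 and lower in 28, in 35 and 38 after quantile normalization, and in 36 and 37 after detrending. It was lower in all 4 measured pairs of the miR-302 and miR-373 group (median log2 change of -0.40, against 0.23 over all pairs). Changes in this group lay between -1.10 and -0.018. Its count was the same after quantile normalization and after detrending. With zeros read as the lowest signal, which adds miR-302c*, the ratio was higher in 1 pair and lower in 4 (median of -0.13). The stars miR-302b* (27.33 under hypoxia) and miR-302d* (38.33 under hypoxia) were dim. With both signals at least 100, the ratio was lower in the 2 pairs left (median of -0.34). In the let-7 family, 4 of 9 star strands were measured and the ratio was lower in 3 of the 4 pairs (median of -0.62), as it was after quantile normalization (-1.36) and detrending (-1.27). With both signals at least 100, the let-7 ratio was higher in 1 pair and lower in 2. With the higher signal above the array median, 1 let-7 pair was left, that of let-7b*, and its ratio was higher (0.57). The ratio was higher in all 5 pairs of miR-23, miR-24 and miR-27 (median of 0.49), and in 4 of the 5 after quantile normalization or detrending. In the miR-17-92 cluster and its paralogs, 8 of 16 star strands were measured. Their ratio was higher in 5 pairs and lower in 3 (median of 0.35), with the same counts after both steps. In the deposited signals this was near the split over all pairs. The counts of these groups moved by at most 1 pair after quantile normalization or detrending.

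Elsewhere some counts depended on these steps. The ratio was higher in 4 of 6 miR-30 pairs, against 2 of 6 after either step, and in all 3 pairs of miR-21, miR-22, miR-221 and miR-222, against 1 of 3. It was higher in 2 of 4 miR-29 pairs, against none after either step, and in all 3 neuronal pairs, against 1. Both measured pairs of miR-181 were higher in all of these settings, and groups with 1 or 2 measured pairs are not described further.

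Star strands of miRNAs typical of particular cell types formed small lists, set here beside the 51.7% of all 151 star strands with a signal on both arrays. A signal on both arrays was listed for 2 of 4 epithelial, 3 of 7 neuronal and 4 of 6 pluripotent star strands. None of the 3 muscle and mesenchymal, 5 blood and 2 gastrointestinal star strands had a signal on both arrays. The guide markers themselves were measured. All 7 epithelial markers had a signal on both arrays (sum of 2511 under hypoxia and 2948 under normoxia), as did all 4 fibroblast and endothelial (5316 under hypoxia and 4586 under normoxia) and all 4 muscle markers (856.4 under hypoxia and 426.3 under normoxia). Of the gastrointestinal markers, 4 of 4 had a signal under hypoxia and 3 of 4 under normoxia (606.3 under hypoxia and 794.3 under normoxia). Of the blood markers, 4 of 5 had a signal under hypoxia and 3 of 5 under normoxia (1027 under hypoxia and 1518 under normoxia), and miR-451 was at 0 on both arrays. Of the neuronal markers, 2 of 3 had a signal under hypoxia and 1 of 3 under normoxia (696.0 under hypoxia and 951.7 under normoxia). The sums moved in different directions, and their part in the results was not tested. miR-210, the miRNA most closely tied to hypoxia, had 2219 under hypoxia and 383 under normoxia. In the paper, quantitative real-time PCR also found miR-210 significantly higher under hypoxia.

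The star is the 5p arm in 56 and the 3p arm in 83 of the strands with a sequence. The ratio was higher under hypoxia in 18 and lower in 12 of 30 pairs with a 5p star (median log2 change of 0.23), and higher in 23 and lower in 15 of 38 pairs with a 3p star (0.28).

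Shared seeds are used to predict shared targets, and 30 star strands fell into 14 such groups, of which 8 had at least 2 measured members. let-7a*, let-7b* and let-7f-1*, with the seed UAUACAA, had log2 fold changes between -1.12 and 0.63, and miR-7-1* and miR-7-2*, with AACAAAU, lay at -0.36 and 1.00. miR-200c* and miR-550*, whose guides are unrelated, share GUCUUAC and had 0.86 and -0.33. miR-30a* and miR-30e*, with UUUCAGU, had 0.32 and -0.26. The copies of miR-24 and of miR-30c, miR-23a* with miR-23b*, and miR-302b* with miR-302d* each lay in 1 direction. In the deposited signals a shared seed thus went with a shared direction in some groups and not in others. miR-7-1*, miR-550* and miR-30e* were lower by less than 0.55 on the log2 scale, so their direction depends on the scaling.

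Of the 58 star strands at 0 on both arrays, 52 had a guide with a signal on both. The median signal of these guides was 838.2 under hypoxia and 700.35 under normoxia, and the brightest were miR-93 under hypoxia (10538) and miR-195 under normoxia (14392). The guides of the 73 measured pairs were brighter, with medians of 1355 under hypoxia and 1357 under normoxia. Among the 14 star strands listed under hypoxia alone, signals lay between 20.33 and 73.67, with a median of 28.7. The brightest were miR-629* (73.67), miR-148a* (55.67), miR-132* (54.67), from a miRNA of neurons, and miR-302c* (46.33). Their guides were measured on both arrays, as in miR-148a with 983.7 under hypoxia and 866.3 under normoxia. Most of the 14 were close to the lowest listed signal of 20, and for none of them could a difference from 0 be read as a fold change.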

How the data were processed

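Per the labels, total RNA was prepared with Trizol and biotin was ligated to RNA 5′ ends. The authors read spot signals with GeneSpring GX, whose version no source used here gives, and deposited signal intensities normalized on global signal intensity, on a linear scale. Their ratios and p-values stand beside them and were not used. The other deposited table had equal signals for all 1329 probes.

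Log2 fold changes (hypoxia over normoxia) came from probes with a signal on both arrays, with no pseudocount, and counted past 2-fold as in the study's methods. Detrending subtracted a lowess fit of fold change on signal (span of 0.4) and was checked on simulated data. Members and lists were chosen with earlier results of these data known. Star strands named were those over 2-fold with signals of at least 50, the 10 brightest under hypoxia, the 8 largest ratio changes each way with 4 signals of at least 50, the 10 furthest above their guides, the 5 brightest on 1 array only, those with several copies and those the study names. Other cluster, seed and family members were named after their values were seen. Arms were assigned from known renaming and matched to RefSeq tables (GRCh38.p14). Alternatives were the other table, median centring, 75th percentile and total-signal scaling, quantile normalization, detrending, pseudocounts of 16 and 50, zeros read as 20, filters on dim signals, thresholds of 1.5-fold and 3-fold, and 1 star strand per guide. Percentile scaling over probes measured on both arrays was added after seeing the data. Python 3.11.15, numpy 2.4.6, pandas 2.3.3, statsmodels 0.14.6 and matplotlib 3.10.9 were used.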

Additional observations from a re-analysis of the deposited data

How the results depend on the processing

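No paired analysis was possible because each condition had 1 array. In the deposited signals, 7 star strands were over 2-fold higher and 3 lower (median log2 fold change of -0.023), and the star to guide ratio was over 2-fold higher in 12 pairs and lower in 4 (median of 0.23). Star strands over 2-fold higher and lower numbered 4 and 4 after median centring, 17 and 0 after scaling on the 75th percentile of listed signals (median of 0.53), 11 and 1 after scaling on the total signal (0.18), 4 and 5 after quantile normalization, 4 and 5 after detrending, and 3 and 1 with 50 added to each signal. The 75th percentile was taken over more dim probes under hypoxia, where more were listed, and over the probes measured on both arrays it gave 7 and 3. With zeros read as the lowest signal, 11 were over 2-fold higher (median of 0.14). The split of higher against lower star strands was 38 against 40, against 70 and 8 with the 75th percentile and 47 and 31 with the total signal. Pairs over 2-fold lower numbered 9 after quantile normalization (median of -0.071), 7 after detrending (median of -0.053), 2 with 50 added and 2 with both signals at least 100. With the higher signal above the array median, 7 of 32 pairs were over 2-fold higher and 2 lower, over fewer pairs. Thresholds of 1.5-fold and 3-fold gave 16 and 0 star strands higher, 8 and 0 lower, 22 and 2 pairs higher, and 15 and 1 pairs lower, by construction. Otherwise the cause was not tested. Of 655 values of named strands under the alternatives, 592 kept their direction and their side of 2-fold, 23 fell within 2-fold and 13 passed it. Another 27, all within 2-fold in the deposited signals, changed direction, and no value past 2-fold did. Part of the 655 values could not move, since the other table had equal signals and a single scaling factor cancels in a ratio. Many strands were also named for large changes in these same data, so these counts do not measure how stable the results are. A probe not well above the lowest signal of 20 has the least certain fold change.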
